A study of Mus musculus with 6 samples.

Results

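Transcripts of the B cell lineage were described in regulatory T cells (Tregs) sorted from the spleens of NOD mice, which are prone to autoimmune diabetes. Of 31 named B lineage genes, 29 had a probe set annotated with that symbol alone, among 18193 genes tested. Lyn and Cd38 were not analysed here. Where a gene had several probe sets, the one with the highest mean over the 6 arrays stands for it. The genes were proposed because B cell transcripts were already known to differ between the groups in these same arrays, so their levels are a description with no test.

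All 6 mice were females on the NOD background, carried the BDC2.5 T cell receptor transgene (tg) and carried the Foxp3GFP reporter, which makes Foxp3-expressing cells fluoresce. The 3 treated mice were RAG1o/o, without a working RAG1 gene. From 17 days of age they received 37.5 µg of the anti-CD3 antibody KT3 intravenously on each of 5 days, and cells were sorted at 29, 29 and 28 days of age in replicates 1, 2 and 3. The 3 untreated mice were RAG1+/o, with 1 working copy, and were sorted at 29, 28 and 28 days. Each array held RNA of 1 mouse from cells that were CD4+ and GFP+ and that lacked B220, CD8a and CD11b or CD11c. RNA passed through 2 rounds of amplification. Genotype and antibody differed together, so their parts in any difference cannot be told apart. Values are RMA probe set intensities on the log2 scale, and ± gives the SD with n = 3 mice per group.

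B cells arise only where antibody genes have been rearranged, a step that needs RAG1. On a mature B cell the antibody pairs with CD79A and CD79B, whose tails are phosphorylated by Src family kinases and recruit SYK, BLNK and BTK. Coreceptors such as CD21 lower the threshold of this receptor, while CD22, CD72 and the Fc receptor FCGR2B raise it. EBF1 and PAX5 set the B lineage programme, and the receptor for BAFF (TNFRSF13C) keeps mature cells alive. Spleen is rich in follicular B cells, which bear CD23 (Fcer2a), and marginal zone B cells, which bear much CD21 (Cr2). B220, against which these cells were sorted, is an isoform of the protein made by Ptprc.

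The labelled cell type was visible on all arrays. Foxp3 measured 11.43, 11.46 and 12.44 on the treated arrays (replicates 1, 2 and 3, the order kept throughout) against 10.75, 9.95 and 11.07 on the untreated arrays. Of 8 Treg markers, 4 including Foxp3 had a treated minus untreated difference above 0 and 4 below. Ikzf4 (−2.44) and Gpr83 (−2.76) were lower on all treated arrays than on all untreated ones. Cd3e ranged from 11.62 to 12.16 and Cd4 from 9.10 to 10.41 over the 6 arrays. Array medians lay between 6.41 and 6.53. Untreated replicate 3 stood apart from the other arrays. Its mean over 20 myeloid markers was 7.26, against 8.64 to 9.66 elsewhere, and its mean over 11 erythroid and platelet markers was 6.71, against 7.81 to 8.46. Where leaving it out moved a printed fold by over 1.5 times or turned the sign of a printed list median, the value without it stands beside.

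Most B lineage transcripts were high in untreated replicates 1 and 2 and low in the treated arrays and in untreated replicate 3. The difference treated minus untreated was below 0 in 27 of 29 members, with a median of −1.42 (−2.08 without untreated replicate 3), and below 0 in 41.5% of all genes, with a median of 0.05. In 18 members both untreated replicate 1 and untreated replicate 2 lay at least 1 log2 unit above the highest treated array, a pattern found in 0.407% of all genes. Untreated replicate 3 lay above all treated arrays in 12 members (18.1% of all genes), within their range in 14 and below them in 3 (21.1% of all genes). The groups did not overlap in 11 members, all with the treated arrays below, against 5.24% of all genes. The treated mice were RAG1o/o and so lacked the rearrangement step that B cells need to arise. Among the untreated arrays, fewer B cells and less of a transcript per cell cannot be told apart in bulk RNA. No member passed the test fitted over all genes (limma, Benjamini-Hochberg adjusted p of 0.05), and it called 0% of all genes in either direction. Unadjusted p values were under 0.05 with lower treated levels for 16 members and 3.17% of all genes, and with higher treated levels for 0 members and 1.82% of all genes. Because the members were chosen on this contrast, nothing is read from these member counts.

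**Figure D1:**
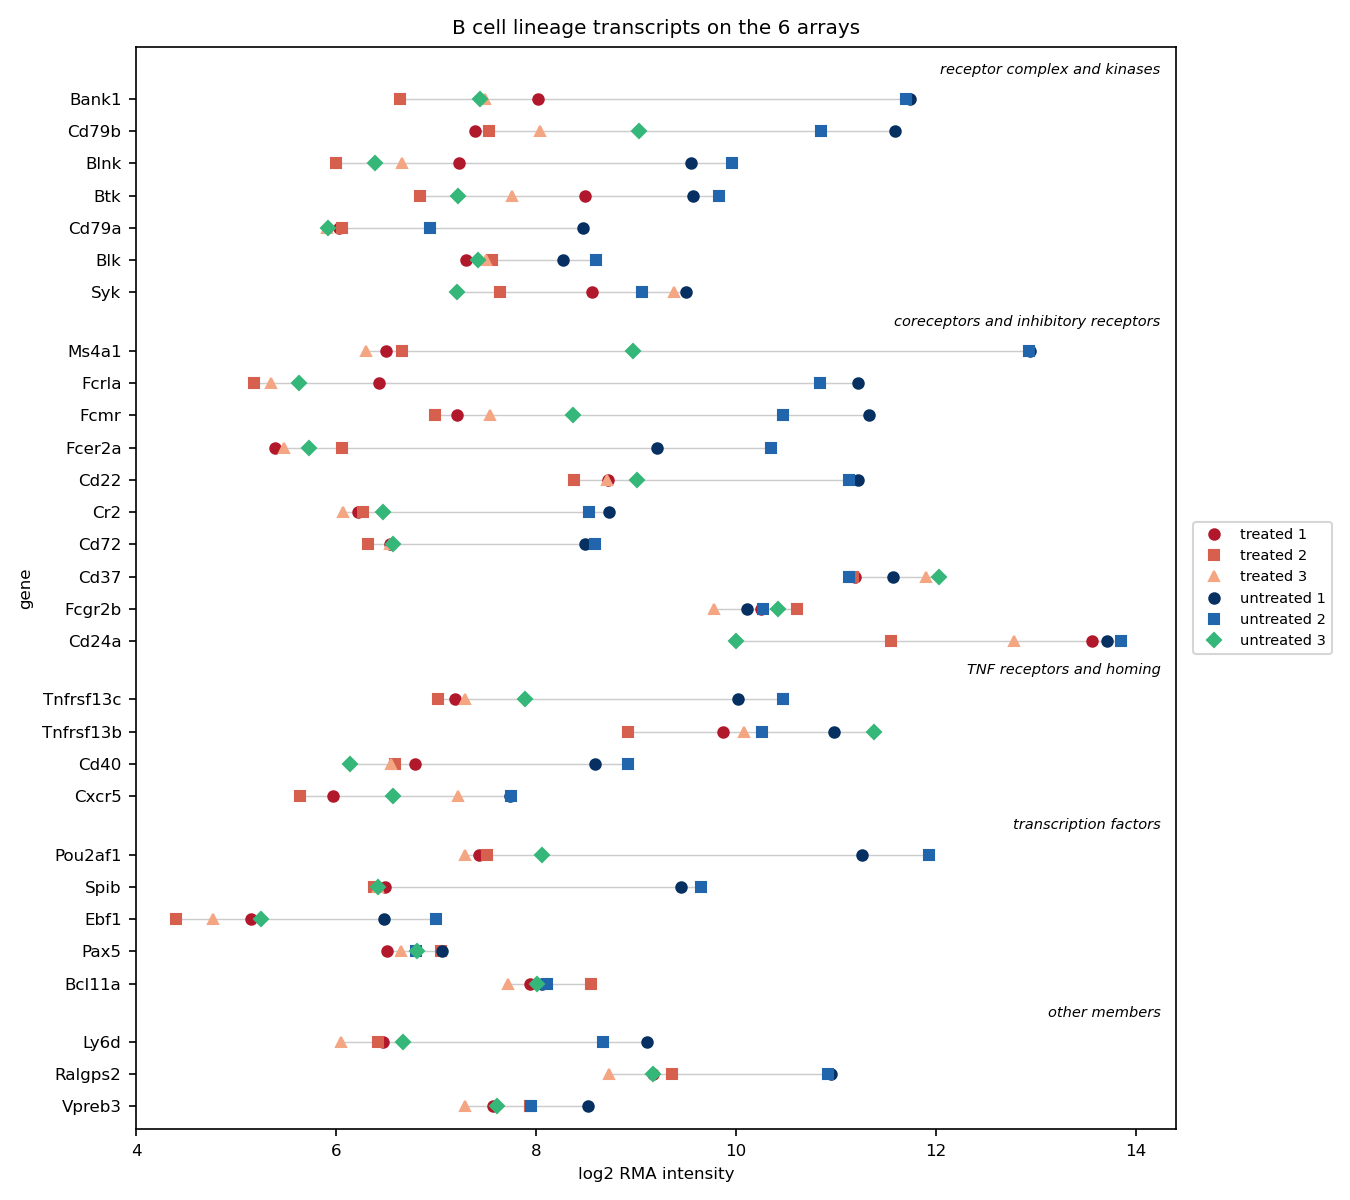
Log2 RMA intensity (x axis) of the 29 B lineage members (y axis, grouped by role) on each of the 6 arrays, 1 point per mouse and a grey line over the range. Untreated replicates 1 and 2 (dark blue circle and blue square) lie far to the right for Ms4a1, Fcrla, Bank1 and Pou2af1, while untreated replicate 3 (green diamond) lies near the treated arrays (red and orange) for most genes.

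For 22 of the 29 members RefSeq promoters of build GRCm38.p6 were at hand, 27 promoters in all. The 250 bases before the transcript start are shown for Blnk, Fcrla, Cd79a and Tnfrsf13b. Levels of Blnk and Fcrla were high in untreated replicates 1 and 2. Cd79a was highest in untreated replicate 1 and Tnfrsf13b in untreated replicate 3. Capitals mark matches, on either strand, to the octamer ATGCAAAT, the EBF site (TCCC and GGGA with any 2 bases between them), the E box CAGNTG or the Ets site AGGAAGT. Matches of different motifs were allowed to overlap.
Cd79a, chr7:24897247-24897496, plus strand: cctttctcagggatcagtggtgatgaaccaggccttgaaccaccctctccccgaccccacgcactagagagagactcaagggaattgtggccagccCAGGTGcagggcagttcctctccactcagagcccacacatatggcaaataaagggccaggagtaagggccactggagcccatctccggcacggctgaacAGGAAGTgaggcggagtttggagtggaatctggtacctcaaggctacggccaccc
Blnk, chr19:40994222-40994471, minus strand: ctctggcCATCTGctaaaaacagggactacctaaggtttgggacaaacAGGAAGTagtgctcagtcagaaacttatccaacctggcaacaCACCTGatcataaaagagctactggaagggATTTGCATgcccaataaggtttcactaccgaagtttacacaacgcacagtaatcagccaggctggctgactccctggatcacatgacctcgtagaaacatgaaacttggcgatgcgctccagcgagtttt
Fcrla, chr1:170927584-170927833, minus strand: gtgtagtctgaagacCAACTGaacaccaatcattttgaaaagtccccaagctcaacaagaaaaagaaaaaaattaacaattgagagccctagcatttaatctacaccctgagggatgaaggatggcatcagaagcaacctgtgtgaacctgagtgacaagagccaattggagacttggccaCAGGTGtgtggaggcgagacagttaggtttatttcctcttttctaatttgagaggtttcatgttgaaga
Tnfrsf13b, chr11:61126505-61126754, plus strand: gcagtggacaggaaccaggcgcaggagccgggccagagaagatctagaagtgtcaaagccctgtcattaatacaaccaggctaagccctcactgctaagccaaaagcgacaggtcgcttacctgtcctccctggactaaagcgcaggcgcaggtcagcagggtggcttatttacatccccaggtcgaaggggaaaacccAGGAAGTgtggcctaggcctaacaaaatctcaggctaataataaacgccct

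The Cd79a window held an E box starting 154 bases and an Ets match starting 55 bases before the transcript start. Blnk held an octamer, read on the other strand, 130 bases before it, and Tnfrsf13b had an Ets match but no E box. Among the 27 member promoters the octamer was present in 2 (Blnk and Vpreb3), the EBF site in 1 (Cd22), the E box in 16 and the Ets site in 6. Over all 32851 promoters the shares were 1.6%, 0.779%, 44.8% and 7.69%. A match describes letters only, and binding was not measured.

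The receptor complex and its kinases were represented by 7 members. Cd79b, the beta signalling chain of the B cell receptor, measured 7.39, 7.53 and 8.04 on the treated arrays against 11.59, 10.86 and 9.04 on the untreated arrays. The groups did not overlap, with untreated replicate 3 between them, and the mean was 7.17-fold higher in untreated samples (7.65 ± 0.34 treated, 10.49 ± 1.32 untreated) and 11.9-fold higher without that array. Cd79a, the alpha chain, measured 6.03, 6.06 and 5.91 in the treated arrays and 8.47, 6.94 and 5.92 in the untreated ones. Untreated replicate 1 was farthest from the treated level for Cd79a, and untreated replicate 2 also lay above all treated arrays. Untreated replicate 3 lay within the treated range. The gap of 1.53 between untreated replicates 1 and 2 was 1 of 2 member gaps above 1.

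Bank1, a scaffold that links the receptor to calcium release, measured 8.02, 6.64 and 7.49 in treated and 11.74, 11.70 and 7.44 in untreated replicates 1, 2 and 3. Blnk, the adaptor that couples SYK to BTK, showed 7.23, 6.002 and 6.66 against 9.55, 9.96 and 6.39. In both genes untreated replicate 3 was inside the treated range and the other untreated arrays were well above it. Blk, a Src family kinase of B cells, measured 7.30, 7.56 and 7.50 in treated and 8.27, 8.60 and 7.42 in untreated arrays, so the same order appeared at a smaller size, a 1.56-fold difference of means.

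Btk and Syk, kinases that myeloid cells also make, varied more among the treated arrays. Btk measured 8.49, 6.84 and 7.76 in treated and 9.57, 9.83 and 7.22 in untreated replicates 1, 2 and 3. Syk measured 8.56, 7.64 and 9.38 in treated and 9.50, 9.06 and 7.21 in untreated replicates. Treated replicate 2 was the lowest treated array for both, and untreated replicate 3 was the lowest of all arrays for Syk. The means of the myeloid list, with a difference above 0 in 18 of 20 genes (11 without untreated replicate 3), were 9.66, 8.64 and 9.52 in treated and 9.15, 9.35 and 7.26 in untreated replicates 1, 2 and 3, again lowest in treated replicate 2 within its group and in untreated replicate 3 over all. Their part in these levels was not tested. The difference for Syk was −0.06 and turned above 0 without treated replicate 2, without untreated replicate 1 or without untreated replicate 2.

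Coreceptors, inhibitory receptors and other surface proteins made up 10 members. Ms4a1, which encodes the B cell surface protein CD20, had the largest difference of all members. It measured 6.50, 6.66 and 6.30 in treated and 12.95, 12.93 and 8.97 in untreated replicates 1, 2 and 3. The groups did not overlap, and untreated replicate 3 lay 2.49 above the treated mean, equal to 5.61-fold. The mean difference was −5.13 (35.1-fold), and −6.45 (87.7-fold) without untreated replicate 3. A second, dimmer Ms4a1 probe set differed by −5.77.

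Fcrla, an Fc receptor-like protein kept inside B cells, measured 6.43, 5.18 and 5.34 in treated and 11.22, 10.84 and 5.63 in untreated replicates 1, 2 and 3. Fcer2a, the low-affinity IgE receptor CD23 of follicular B cells, measured 5.39, 6.06 and 5.47 against 9.21, 10.35 and 5.73. Unlike Ms4a1, both had untreated replicate 3 within the treated range. The folds were 11.9 for Fcrla and 6.92 for Fcer2a, and without that array 41.6 and 17.6. Fcer2a was the other member with untreated replicates 1 and 2 more than 1 apart, here with replicate 2 higher by 1.15. The second Fcer2a probe set, with dimmer signal, differed by +0.21.

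Fcmr, the receptor for IgM, measured 7.21, 6.99 and 7.54 in treated and 11.34, 10.47 and 8.37 in untreated replicates 1, 2 and 3. Cr2, which encodes the complement receptor CD21, measured 6.22, 6.27 and 6.07 against 8.73, 8.53 and 6.47. In both genes the groups did not overlap, and untreated replicate 3 was nearer to the treated arrays than to the other untreated ones. Cd22, an inhibitory lectin of the receptor, measured 8.72, 8.38 and 8.71 in treated and 11.22, 11.13 and 9.01 in untreated arrays. Cd72, another inhibitory receptor, measured 6.54, 6.32 and 6.54 against 8.49, 8.59 and 6.57. Both also had all treated values below all untreated ones, for Cd72 by the narrow step from treated replicates 1 and 3 to untreated replicate 3.

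The remaining surface members did not share this pattern. Cd24a, a small glycoprotein of immature lymphoid, erythroid and myeloid cells, measured 13.56, 11.55 and 12.78 in treated and 13.71, 13.86 and 10.002 in untreated replicates 1, 2 and 3, with untreated replicate 3 the lowest of all. The means of the erythroid and platelet list, 8 of whose 11 genes had a difference above 0 (1 without untreated replicate 3), were 8.35, 7.96 and 7.81 in treated and 8.34, 8.46 and 6.71 in untreated arrays, and their part in the Cd24a level was not tested. The Cd24a difference was +0.11 and turned below 0 without untreated replicate 3, without treated replicate 1, with age as a covariate and from means of linear values.

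Cd37, a tetraspanin of mature lymphocytes including T cells, measured 11.19, 11.17 and 11.90 in treated and 11.58, 11.14 and 12.03 in untreated replicates 1, 2 and 3, with untreated replicate 3 highest. Fcgr2b, the inhibitory IgG receptor, measured 10.25, 10.62 and 9.79 in treated and 10.12, 10.28 and 10.42 in untreated replicates. Its groups overlapped fully and its difference was −0.05.

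Receptors of the tumour necrosis factor (TNF) family and 1 chemokine receptor formed a group of 4. Tnfrsf13c, the BAFF receptor, measured 7.19, 7.02 and 7.29 in treated and 10.02, 10.47 and 7.89 in untreated replicates 1, 2 and 3, a 4.90-fold difference of means without overlap (8.44-fold without untreated replicate 3). Cd40, the receptor through which helper T cells license B cells, measured 6.79, 6.59 and 6.55 against 8.59, 8.92 and 6.14. For Cd40, untreated replicate 3 lay below all treated arrays. Of its other 2 probe sets, 1 differed by −1.99 and the other by −0.56.

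Tnfrsf13b, which encodes TACI, a second receptor for BAFF, had another order. It measured 9.87, 8.92 and 10.08 in treated and 10.98, 10.26 and 11.38 in untreated replicates 1, 2 and 3, with all treated values below all untreated ones. Here untreated replicate 3, low in most members, was the highest array, as it also was for Cd37. The list of 8 Treg markers, 4 with a difference above 0, had its highest mean on that array too, 11.40 against 10.46 to 10.99 on the others. The part of the Treg list in the Tnfrsf13b level was not tested. Cxcr5, the receptor that leads B cells and follicular T cells into follicles, measured 5.97, 5.64 and 7.22 in treated and 7.74, 7.75 and 6.57 in untreated replicates. Treated replicate 3 exceeded untreated replicate 3 for Cxcr5. The follicular T cell list without Cxcr5 (7 genes, 5 above 0) ranged from 8.11 to 8.53 in treated arrays, highest in replicate 3, and from 7.93 to 7.98 in untreated ones, and its part in the Cxcr5 level was not tested.

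On the chosen probe sets, the transcription factors split between members with the shared pattern and members with flat levels. Pou2af1, the coactivator that binds octamer factors in B cells, measured 7.43, 7.51 and 7.29 in treated and 11.26, 11.94 and 8.06 in untreated replicates 1, 2 and 3. Spib, an Ets factor of B cells and plasmacytoid dendritic cells, measured 6.49, 6.38 and 6.41 against 9.46, 9.65 and 6.42. Pou2af1 in untreated replicate 3 was above the treated arrays, at 1.58-fold the treated mean, while Spib there was within their narrow range of 0.11. Ebf1, which opens the B lineage programme, measured 5.15, 4.40 and 4.77 in treated and 6.48, 7.002 and 5.25 in untreated arrays, below the overall median of 6.45 on every treated array.

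Pax5, the factor that maintains B cell identity, measured 6.51, 7.05 and 6.65 in treated and 7.06, 6.80 and 6.81 in untreated replicates 1, 2 and 3, with overlapping groups. These Pax5 values lay little above the overall median of 6.45. Its second probe set was dimmer, below that median on every array, and differed by +0.34. Bcl11a, a zinc finger factor of B cells and dendritic cells, measured 7.94, 8.55 and 7.72 in treated and 8.06, 8.11 and 8.01 in untreated arrays on the probe set chosen for it. Its remaining probe sets included some that were not flat. The one with the largest difference measured 7.30, 5.37 and 6.20 in treated and 8.71, 9.97 and 5.14 in untreated replicates, a difference of −1.65 with untreated replicate 3 lowest of all.

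Probe sets of 1 gene therefore gave unlike pictures for several members. The 29 genes had 59 probe sets, and 13 genes had more than 1. Of the 30 probe sets that were not used, 11 had a difference of the other sign, in 7 genes (Bcl11a, Cd24a, Pax5, Cd37, Fcgr2b, Fcer2a and Syk). For Ebf1, a dimmer probe set measured 4.43, 3.29 and 3.33 in treated and 8.02, 7.18 and 3.50 in untreated arrays, while another was flat, with a difference of −0.07. For Fcgr2b, 1 probe set measured 7.11, 4.88 and 7.23 in treated and 7.83, 8.74 and 5.14 in untreated arrays, lowest in treated replicate 2 and untreated replicate 3. Over all probe sets, 19 members had at least 1 with untreated replicates 1 and 2 both clear of the treated arrays by 1 log2 unit, Bcl11a being added to the 18.

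**Figure D2:**
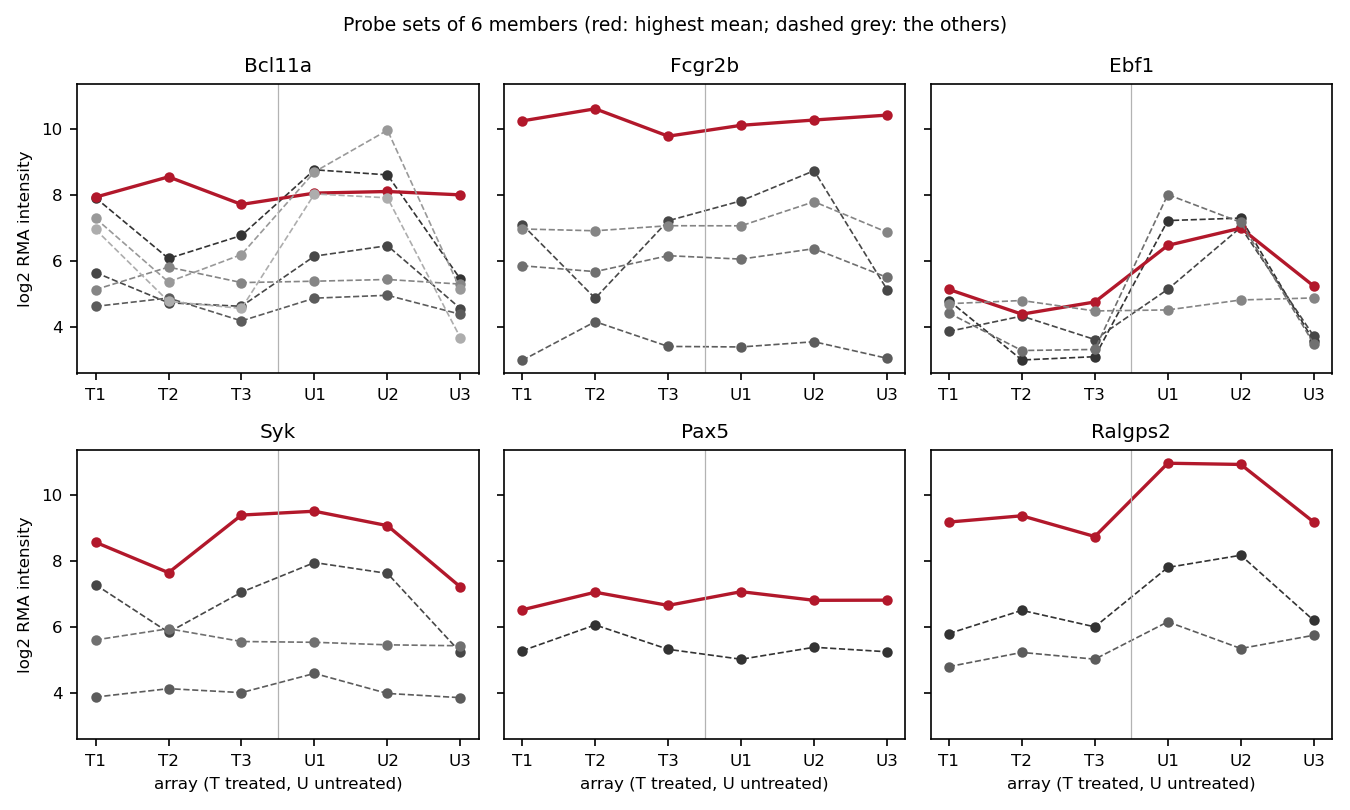
Log2 RMA intensity (y axis) of every probe set of 6 members on the treated (T1 to T3) and untreated (U1 to U3) arrays (x axis). The red line is the probe set with the highest mean and dashed grey lines are the others: the red lines of Bcl11a and Fcgr2b are flat, while several grey lines of Bcl11a and Ebf1 peak on U1 and U2 and are low on U3.

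Ly6d, a surface protein of lymphoid progenitors and B cells, measured 6.47, 6.42 and 6.05 in treated and 9.11, 8.67 and 6.67 in untreated replicates 1, 2 and 3, without overlap. Ralgps2, an exchange factor for Ral GTPases, measured 9.17, 9.36 and 8.73 against 10.95, 10.92 and 9.17. Untreated replicate 3 fell among the treated arrays for Ralgps2 and just above them for Ly6d. Vpreb3, a chaperone of the B cell receptor in immature B cells, measured 7.57, 7.94 and 7.29 in treated and 8.52, 7.95 and 7.61 in untreated arrays, a 1.35-fold difference with overlapping groups.

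Among themselves the members fell into those made mainly by the B lineage and those known from other cells too, a division taken from textbook knowledge. The 15 of the first kind all had a difference below 0, with a median of −2.29 (−3.08 without untreated replicate 3), and their mean was 6.87, 6.75 and 6.78 in treated and 9.87, 9.77 and 7.31 in untreated replicates 1, 2 and 3. The 14 of the second kind had 12 differences below 0 and a median of −1.21 (−1.66 without that array), with means of 8.47, 8.001 and 8.40 in treated and 9.82, 9.79 and 8.16 in untreated replicates. Untreated replicate 3 was above all treated arrays in the first mean and within their range in the second. It was below all treated arrays for 3 members, all of the second kind (Cd40, Cd24a and Syk). In 8 members (27.6%) the treated mean was below 6.45, the median of all probe set values, against 36.9% of all genes. With untreated replicate 3 left out, the untreated mean was below it in 0 members and in 6892 of all 18193 genes.

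The array file numbers in the labels fall into 2 runs, the first with replicates 1 and 2 of each group and the second with the pair of replicates numbered 3. Within the first run, 27 of 29 members were lower in treated samples, with a median of −2.06, against 42.8% of all genes and a median of 0.06. Within the pair, 21 were lower, with a median of −0.28, against 49.5% of all genes and a median of 0.0035. Ms4a1 differed by −6.36 in the first run and by −2.67 in the pair, Cd79b by −3.76 and −0.9997, and Fcmr by −3.80 and −0.83. Fcrla differed by −5.23 and −0.28 and Bank1 by −4.39 and +0.05. In 8 members the difference was below 0 in the first run and above 0 in the pair (Bank1, Blnk, Blk, Btk, Syk, Cd24a, Cd40 and Cxcr5), and in 2 the reverse held (Bcl11a and Fcgr2b). The values furthest above 0 in the pair were those of Cd24a (−1.23 in the first run and +2.78 in the pair) and Syk (−1.18 and +2.18), and Cxcr5 followed at −1.94 and +0.65. The pair holds 1 array of each group and has no replicate. The file numbers are not stated to be batches.

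**Figure D3:**
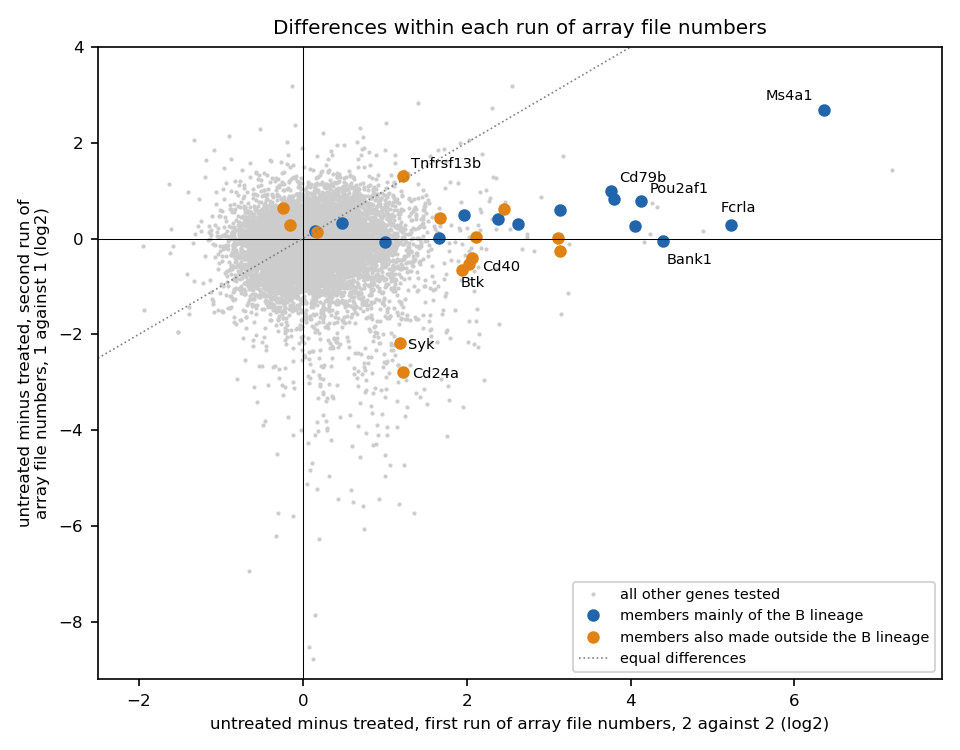
Untreated minus treated difference (log2) within the first run of array file numbers (x axis, 2 arrays per group) and within the second (y axis, 1 array per group) for members (blue and orange) and all other genes (grey). Most members lie far right of 0 but near 0 on the y axis. Ms4a1 lies at 6.36 and 2.67, Tnfrsf13b near the dotted line of equal differences, and Syk and Cd24a below 0 on the y axis.

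Other B cell genes were taken from textbook lists of 10 kinds. Of 125 measured genes outside the members, 0 passed limma over all genes in either direction at an adjusted p of 0.05, while 17 were lower and 1 higher at an unadjusted p under 0.05, against 3.17% and 1.82% of all genes. Among 20 genes of receptor signalling, 13 had a difference below 0 and the median was −0.11. Rasgrp3, an exchange factor for Ras downstream of the receptor, measured 6.70, 6.64 and 6.65 in treated and 8.98, 9.85 and 6.74 in untreated replicates 1, 2 and 3. Swap70 differed by −0.87 and Pik3r1 by −0.67. Of 11 inhibitory regulators, 3 lay below 0 (median +0.12), with Fcrl1, an Fc receptor-like protein of B cells, at 6.34, 5.74 and 6.81 in treated and 8.34, 8.28 and 7.60 in untreated arrays. Pirb differed by +1.11 and Ptpn22 by −0.56.

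Of 22 surface markers, 14 lay below 0 (median −0.21). H2-Ob, a chain of the class II regulator DO, measured 8.92, 8.74 and 8.84 in treated and 11.45, 12.02 and 9.72 in untreated arrays, without overlap, and Cd1d1 differed by −0.61. Among 20 lineage factors, 10 lay below and 10 above 0 (median +0.05, and −0.02 without untreated replicate 3), with Bach2 at −1.59, Foxp1 at −0.997 and Irf4 at −0.42. T cells also make these 3 factors. Survival and costimulation genes had a median of +0.11 over 14 genes, with Bcl2 at −1.08, Traf6 at −0.93 and Traf1 at +0.50.

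Lists for stages of the B lineage came next. The 11 precursor genes had a median of +0.19, which was −0.0067 without untreated replicate 3, with Rag1 at −1.18, Myl4 at −0.64 and Vpreb1, part of the surrogate light chain, at +0.85. Rag1 is the gene with no working copy in the treated mice, so its difference cannot be read as that of a precursor marker. It measured 5.47 in untreated replicate 3, within the treated range of 4.93 to 6.68. Germinal centre genes had a median of +0.05 over 9 genes, or −0.19 without that array (Rgs13 −1.14, Ezh2 −0.58, Gna13 −0.47) and marginal zone and B1 genes −0.05 over 10 (Mzb1 −1.51, Zbtb32 +0.54). Of 11 plasma cell genes, 10 lay below 0 (median −0.36), with Jchain, the joining chain of IgM and IgA, at 5.73, 5.83 and 5.60 in treated and 12.50, 13.43 and 7.04 in untreated replicates 1, 2 and 3. Of 5 antibody genes 4 lay below 0. Ighm measured 12.56, 12.62 and 13.27 in treated and 13.73, 14.14 and 13.14 in untreated arrays, and Igha 7.33, 7.77 and 7.29 against 12.27, 12.60 and 7.45. For Ighm treated replicate 3 exceeded untreated replicate 3, so the groups overlapped, as they did for Igha. For Jchain all treated arrays lay below all untreated ones.

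Markers of other cells did not all move in the same order, and some lists had untreated replicates 1 and 2 highest, as most members did. The T cell list (9 genes) had means of 11.26, 11.26 and 11.78 in treated and 11.10, 10.34 and 11.70 in untreated replicates 1, 2 and 3. Plasmacytoid dendritic cell markers (7 genes), a cell type that shares Spib and Ly6d with B cells, had means of 7.86, 7.72 and 7.48 in treated and 8.06, 8.004 and 7.46 in untreated arrays. Untreated replicates 1 and 2 were thus above every treated array and untreated replicate 3 below them all. As in most members, untreated replicates 1 and 2 were the highest arrays, and the part of this list in the levels of Spib and Ly6d was not tested. Their defining marker Siglech measured 6.71 to 7.18 over the 6 arrays. The NK cell list (9 genes) showed the same order, with 8.92, 8.57 and 8.45 in treated and 9.04, 9.12 and 7.60 in untreated arrays. Cd8a, excluded by the sort, ranged from 6.83 to 7.16, and the 2 CD8 genes had overlapping groups. The myeloid list differed by a median of +0.75, which was +0.05 without untreated replicate 3. Itgam measured 4.84 to 6.64 while Csf1r measured 8.27 in untreated replicate 3 and 11.18 to 12.66 elsewhere.

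**Figure D4:**
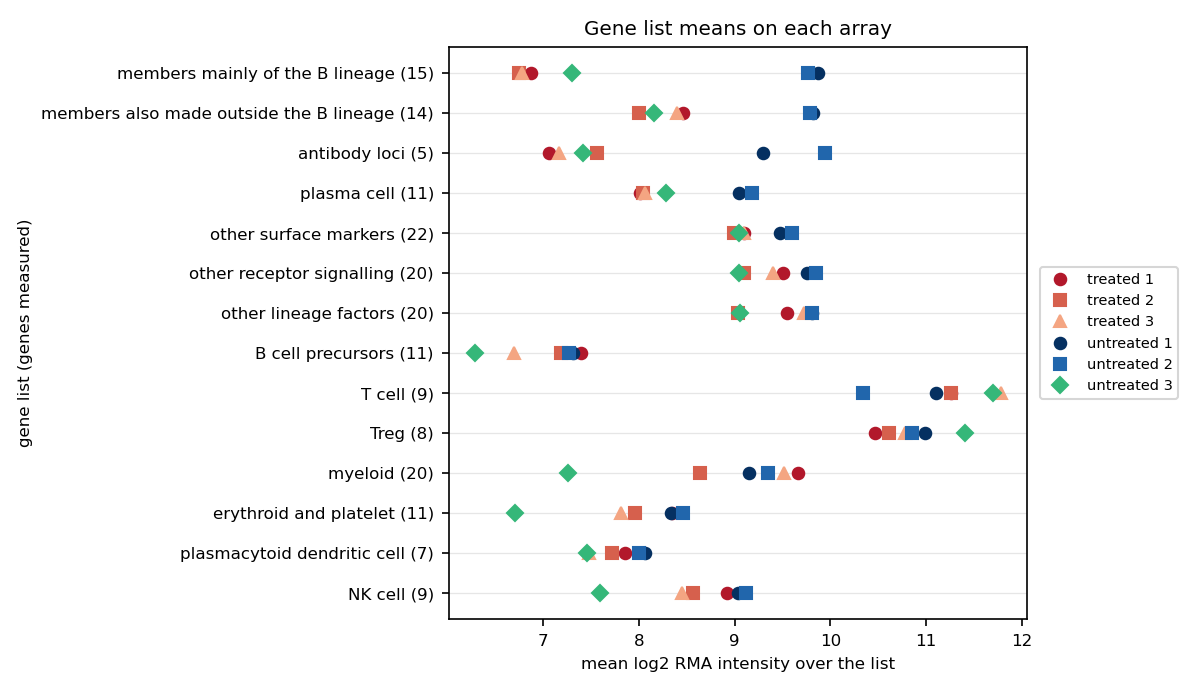
Mean log2 RMA intensity (x axis) of gene lists (y axis, number of genes measured in brackets) on each array, 1 point per mouse. The B lineage members, antibody and plasma cell lists separate untreated replicates 1 and 2 widely from the rest. Surface marker, receptor signalling, lineage factor, plasmacytoid dendritic cell and NK lists do so by smaller steps. In the antibody list (5 genes) and the plasma cell list (11 genes), only 2 genes each had both of these arrays at least 1 log2 unit above all treated arrays. Untreated replicate 3 (green diamond) is lowest in the myeloid, erythroid, NK and B cell precursor lists and highest in the Treg list. It is also lowest, by a narrow step, in the plasmacytoid dendritic cell and receptor signalling lists.

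Genes outside the members were also ranked by likeness of their profile over the 6 arrays to the mean profile of the 15 members made mainly by the B lineage, as the root mean square distance after each gene's mean was subtracted. The nearest of 18164 genes were 4930426D05Rik (0.23), H2-Ob (0.26), Rasgrp3 (0.33), Sspn (0.36) and Srpk3 (0.37). Snn (0.38), Mzb1 (0.40), Igkv6-14 (0.42), Gzma (0.42) and Tubb2b (0.42) followed, and the median distance of all these genes was 1.43. Gzma, which encodes granzyme A of cytotoxic cells, measured 9.45, 8.80 and 8.82 in treated and 11.46, 11.52 and 10.08 in untreated replicates. Of the members themselves, Tnfrsf13c (0.19), Cd22 (0.22) and Spib (0.23) were nearest to the profile and Ms4a1 was farthest (1.56), since the size of the difference enters the distance.

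Without untreated replicate 3, limma called 31 lower and 1 higher gene at an adjusted p of 0.05, and 14 of the lower ones were members, where 0.17% of all genes were called lower and 0.0055% higher. The members were Ms4a1, Cd79b, Cd22, Fcer2a, Cr2, Cd72, Cd40, Tnfrsf13c, Fcmr, Ly6d, Bank1, Spib, Pou2af1 and Fcrla. Of the other B cell genes, Jchain, Igha, Iglv1, H2-Ob and Rasgrp3 passed. The array left out was the untreated one with the lowest mean of the 15 members made mainly by the B lineage (7.31 against 9.87 and 9.77). Leaving out any other single array called 0 genes. Because the members were chosen on this contrast, nothing is read from their count or from which of them passed.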

How the data were processed

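Gene expression was measured on 6 Affymetrix M430v2 arrays, 3 per group. The authors ran RMA, with no version stated, per the submitters' processing notes and design text. What they deposited is 1 linear intensity for each probe set and array (5.47 to 29584.9), of which log2 was taken here. RMA makes array distributions alike, so a change common to most transcripts could not be seen. Of 45101 probe sets, 64 controls were left out, 34945 had 1 symbol in the platform annotation, 932 several and 9160 none; 34741 symbols were matched through gene identifiers.

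Models were fitted with limma 3.58.1 (R 4.3.3) to 45037 probe sets, with p-values adjusted over 18193 genes (threshold 0.05). The test was also run on data simulated for 18193 genes with independent noise. No array was made to stand apart there, so the simulation cannot show how the test behaves with an array like untreated replicate 3. Members, lists and naming rules (all members, up to 3 genes per list by smallest p, 10 genes by likeness) were chosen with earlier results of these data known. The number of arrays limits the precision. Figures used matplotlib 3.10.9 in Python 3.11.15.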

Additional observations from a re-analysis of the deposited data

How the results depend on the processing

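The median member difference of −1.42 kept its direction under every alternative run, from −2.08 to −1.19 when 1 array was left out (without untreated replicate 3 and without untreated replicate 2). Single member differences turned sign in 17 of 406 recomputed values, in Bcl11a, Cd24a, Pax5, Fcgr2b, Syk and Cd37, the cause of which was not tested. Counts of genes passing over all 18193 genes were 0 in the main comparison, 1 with median centring (Ikzf4), 5 with array weights (Ikzf4, Gpr83, Ccr7, Adamts6 and Slc37a2) and 0 to 32 with 1 array left out. Of the 125 other B cell genes, 0 to 5 passed with 1 array left out, 5 being the count without untreated replicate 3. With the replicate number as a block, 0 genes passed and the member median stayed at −1.42; same-numbered arrays had correlations of deviations across genes of 0.51, 0.01 and 0.10, and not every array correlated best with its own number. Within the pair of replicates numbered 3 the member median was −0.04 with the mean of each gene's probe sets, against −0.28. Alternatives for untreated replicate 3 against the treated mean (median 0.09, and 0.06 to 0.14 over these alternatives) were chosen after seeing the data. No detection calls were used, so low intensities have no stated floor. The list medians without untreated replicate 3 were also added after seeing the data.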
